A study of Mus musculus with 12 samples.

Results

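The genes described here are 10 antioxidant genes linked to the transcription factor NRF2: Nfe2l2, which encodes NRF2 itself, and its targets Nqo1, Srxn1, Txnrd1, Gclc, Gclm, Gsr, G6pdx, Abcc4 and Akr1b8. The set is a fixed list of names, and each gene was read from the probe set that carries its symbol and no other. Of the 10 genes, 9 had such a probe set, 1 each, among 19938 genes of the array, and G6pdx was not analysed here. Renal cortex RNA from mice was measured on 12 Affymetrix gene arrays, 3 for each of 4 groups. Controls had floxed alleles (nr3c1 flox/flox) of Nr3c1, which encodes the glucocorticoid receptor, GR. GR-deficient mice had these alleles plus Pax8-Cre, which is active in renal tubular epithelium, so a genotype difference includes any effect of Pax8-Cre itself, and the receptor is not targeted in other cells of the cortex. Mice with acute kidney injury (AKI) had received glycerol into muscle 24 hours before, a model in which damaged muscle releases myoglobin that the kidney filters. Healthy mice were a separate cohort that was not injected, so cohort and injury are compared together. Whether the 3 numbered samples of a group are different animals is not stated in the labels, and the p-values then rest on the spread among those samples, part of which may be technical. The age and sex of the mice were not given in the sources used here.

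NRF2 is held in the cytoplasm by KEAP1, which marks it for degradation. Oxidants and electrophiles modify KEAP1 and let NRF2 escape. It then enters the nucleus, pairs with a small MAF protein and binds antioxidant response elements (AREs) near its targets. BACH1 competes for the same elements and leaves them when heme binds it. The targets make glutathione and NADPH, repair oxidised peroxiredoxins, reduce quinones and aldehydes, and export conjugates. In the kidney the tubular epithelium, which takes up filtered myoglobin, is a known site of this response.

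The ARE core was looked for in the 250 bases before each annotated start in RefSeq (GRCm38.p6), as TGACNNNGC or TGAGNNNGC on either strand. Of the 9 measured genes, 7 were in the promoter table, and Gclc and Gsr were not. A match was found for 5 genes: Srxn1, Txnrd1, Gclm, Abcc4 and Nfe2l2. Nqo1 and Akr1b8 had none in this window. Over all 32851 starts, 10.2% held the first spelling, 14.4% the second and 23.0% either, and the genes' starts held one in 6 of 10. Srxn1 and Akr1b8, the genes that rose most after AKI, are shown whole to set a start with 2 matches beside one with none. The matches of the other genes are shown with their flanks, each read on the strand of the motif. Capitals mark the match; the first match in Srxn1 lies on the opposite strand and so is printed as its reverse complement.
Srxn1, chr2:152105274-152105523, plus strand: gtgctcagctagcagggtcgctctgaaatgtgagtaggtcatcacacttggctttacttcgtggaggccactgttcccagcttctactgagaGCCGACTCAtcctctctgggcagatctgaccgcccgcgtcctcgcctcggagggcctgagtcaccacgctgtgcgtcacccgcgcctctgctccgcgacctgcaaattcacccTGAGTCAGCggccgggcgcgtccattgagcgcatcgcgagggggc
Akr1b8, chr6:34353896-34354145, plus strand: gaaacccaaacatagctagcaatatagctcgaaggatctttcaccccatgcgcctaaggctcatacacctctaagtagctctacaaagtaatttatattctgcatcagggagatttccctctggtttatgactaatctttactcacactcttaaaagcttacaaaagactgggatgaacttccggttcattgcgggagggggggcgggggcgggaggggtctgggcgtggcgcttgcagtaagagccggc
Txnrd1, chr10:82859098-82859138, minus strand: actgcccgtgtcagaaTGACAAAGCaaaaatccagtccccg
Gclm, chr3:122245407-122245447, minus strand: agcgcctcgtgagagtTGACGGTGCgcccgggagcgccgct
Abcc4, chr14:118676932-118676970, minus strand: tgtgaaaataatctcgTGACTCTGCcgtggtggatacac
Abcc4, chr14:118706303-118706343, plus strand: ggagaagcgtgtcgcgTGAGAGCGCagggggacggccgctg
Abcc4, chr14:118706220-118706260, plus strand: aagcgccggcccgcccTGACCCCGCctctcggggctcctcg
Nfe2l2, chr2:75704879-75704913, minus strand: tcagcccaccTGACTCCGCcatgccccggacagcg
The Srxn1 match that lies 45 bases before the start reads TGAGTCAGC, and its first letters, TGAGTCA, also spell the AP-1 motif. Abcc4 had matches at both of its annotated starts and Txnrd1 at 1 of 3. A match is a run of letters and not a measured binding site.

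The genotype labels were checked on Nr3c1, on the log2 scale. Nr3c1 read 9.65, 9.48 and 9.52 on the healthy control arrays, 8.82, 8.89 and 8.86 on the control AKI arrays, 8.18, 8.13 and 8.21 on the GR-deficient healthy arrays and 8.10, 7.96 and 7.87 on the GR-deficient AKI arrays. All 6 GR-deficient arrays were below all 6 control arrays. Array medians over the 19938 genes lay between 7.0 and 7.09. Control AKI replicate 1 and GR-deficient healthy replicate 1 stood apart from their groups on a principal component, and calls on the 9 genes that are lost without both are given beside them. Values are deposited log2 levels, so a difference of 1 is 2-fold, and a probe set's level is not compared with that of another. Adjusted p-values are from limma over all 19938 genes, with a threshold of 0.05, and the error of a difference is its standard error.

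After AKI in control mice 8 of the 9 genes rose and none fell, where 28.7% of all genes passed, 13.6% upwards and 15.1% downwards. Akr1b8 rose 18.8-fold in RMA values and Srxn1 11.2-fold. Txnrd1, Nqo1, Abcc4, Gclc, Nfe2l2 and Gsr rose by less, and Gclm did not pass. In GR-deficient mice 7 rose and none fell, where 4.64% of all genes passed, 3.29% upwards and 1.35% downwards, and Gsr and Gclm did not pass. The median difference of the 9 genes was 1.11 in control and 0.77 in GR-deficient mice, against 0.00126 and -0.0255 over all genes.
All 9 genes were higher on every AKI array than on any healthy array of the same genotype, in control mice (19.3% of all genes were, and 20.4% were lower on every AKI array) and in GR-deficient mice (12.8% and 12.5%). Over all genes 39.6% and 25.3% did not overlap in either direction. Without GR-deficient AKI replicate 1 the count in GR-deficient mice was 4. Under other scalings of the arrays the count stayed at 7 up and 0 down, while the split of all calls moved from 656 higher and 270 lower to 649 and 410 with quantile normalization and 682 and 453 with cyclic loess.

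**Figure D1:**
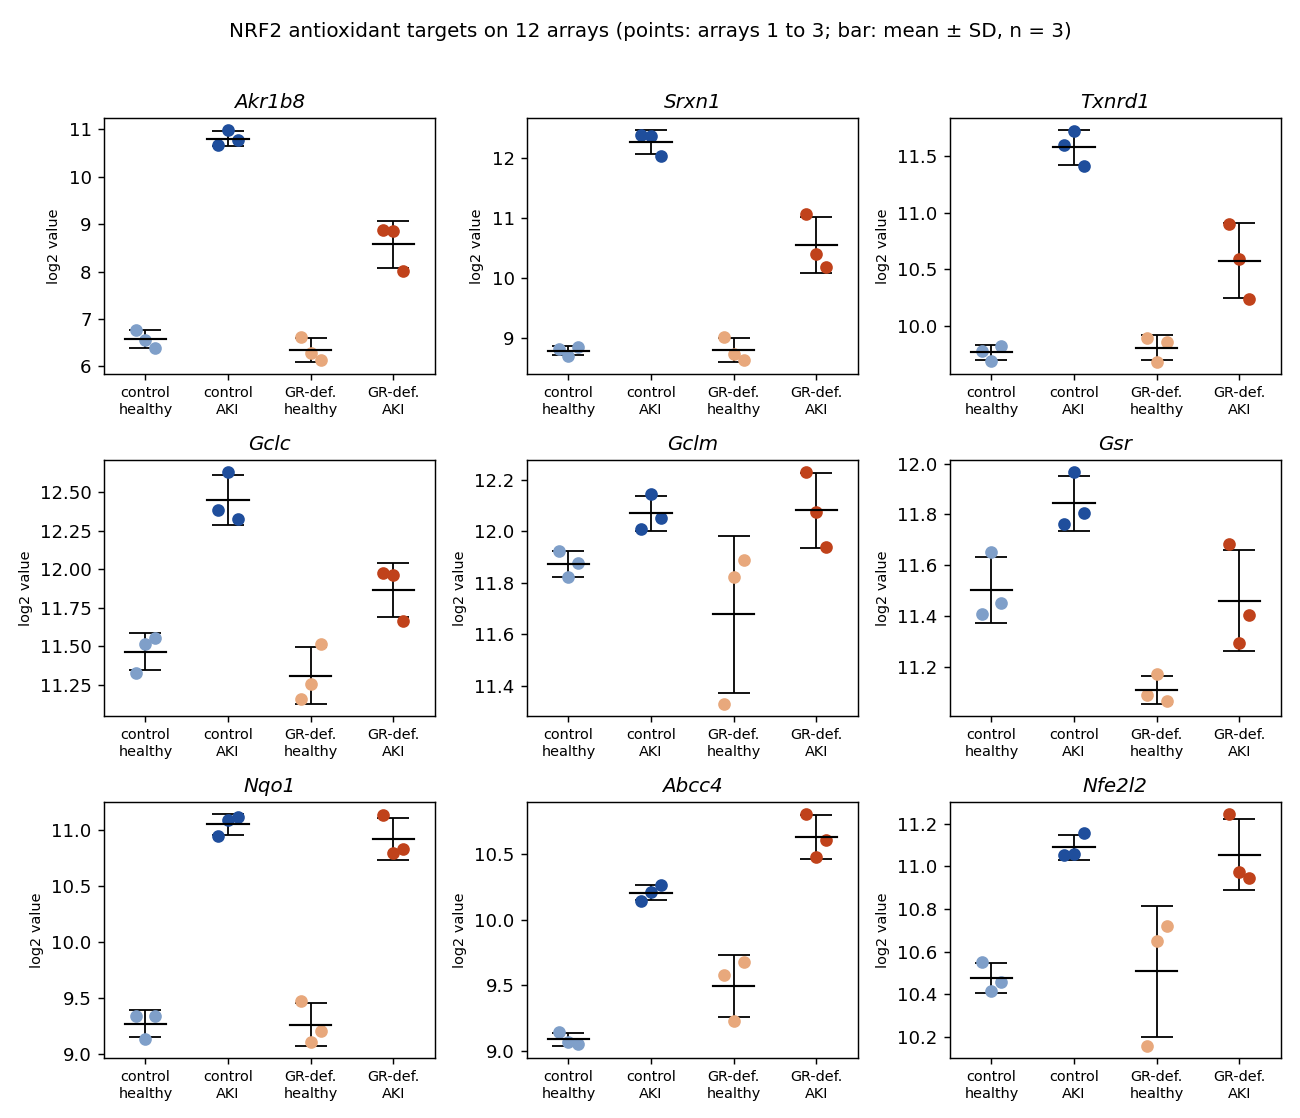
Log2 level on each array of the 9 measured genes, 1 panel a gene, in the 4 groups of 3 arrays; points are arrays, the horizontal line is the group mean and error bars are SD (n = 3); each panel has its own axis. AKI arrays lie above healthy arrays of the same genotype in all 9 panels, and for Srxn1, Txnrd1, Gclc, Gsr and Akr1b8 the GR-deficient AKI arrays lie below the control AKI arrays.

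In healthy mice no gene passed for GR deficiency, where 0.145% of all genes did (0.0351% higher and 0.110% lower). At an unadjusted p under 0.05 there were 2, Gsr and Abcc4, where 10.7% of all genes were under it, and none passed in limma in any of the 12 fits that each left out 1 array or under the other scalings, variance models and array weights. In AKI the genotypes differed for 6 genes, where 17.4% of all genes passed: 5 were lower in GR-deficient mice (7.34% of all genes) and 1 was higher (10.02%). The lower genes were Akr1b8, Srxn1, Txnrd1, Gclc and Gsr, and the higher one was Abcc4. The arrays of these 6 genes did not overlap between genotypes in AKI, as held for 15.3% of all genes downwards, 17.5% upwards and 32.8% in all. In healthy mice the arrays of Gsr were lower and those of Abcc4 higher without overlap, as held for 10.6% and 8.08% of all genes, 18.6% in all. The interaction, the test of whether the AKI response differs between genotypes, passed for 3 genes, Akr1b8, Srxn1 and Txnrd1, where 11.5% of all genes passed, 4.06% downwards and 7.39% upwards.
Averaged over both conditions with equal weight, a contrast added after the data were seen, 5 genes were lower in GR-deficient mice and 1 was higher, where 8.46% of all genes passed, 3.92% lower and 4.54% higher. For Srxn1 and Txnrd1 the differences in healthy mice were 0.01 and 0.04, so their averages come from AKI.

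**Figure D2:**
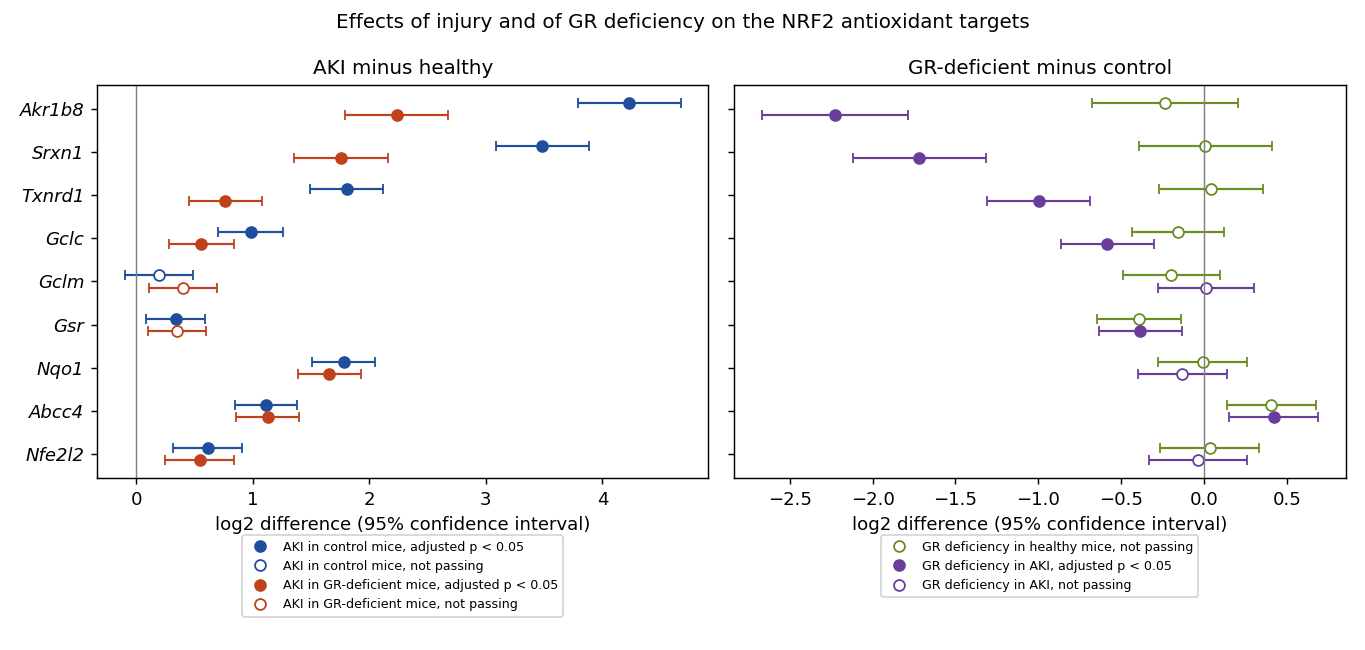
Log2 differences of the 9 genes with 95% confidence intervals, for AKI minus healthy in each genotype (left) and for GR-deficient minus control in each condition (right); filled points have a limma adjusted p below 0.05. The responses of Akr1b8, Srxn1 and Txnrd1 are 4.23, 3.48 and 1.81 in control mice and 2.23, 1.76 and 0.77 in GR-deficient mice, and those of Nqo1 are 1.78 and 1.66.

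Nfe2l2 encodes NRF2, whose activity is set mainly by protein stability, so its mRNA is not a measure of that activity. Nfe2l2 read 10.55, 10.41 and 10.46 on the healthy control arrays, 11.05, 11.06 and 11.16 on the control AKI arrays, 10.16, 10.65 and 10.72 on the GR-deficient healthy arrays and 11.24, 10.97 and 10.94 on the GR-deficient AKI arrays. Both AKI groups were above both healthy groups, the AKI groups overlapped each other, and GR-deficient healthy replicate 1 was the lowest array. The rise was 0.61 ± 0.139 in control mice (limma adjusted p = 0.00333) and 0.54 in GR-deficient mice (limma adjusted p = 0.039). The interaction was -0.07, with an interval of -0.49 to 0.35. The call in GR-deficient mice passed in 3 of 12 fits that each left out 1 array, those without replicate 1 or 3 of control AKI or GR-deficient healthy replicate 3, and was lost without both arrays that stand apart (adjusted p = 0.0609).

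Srxn1, sulfiredoxin, repairs over-oxidised peroxiredoxins. Srxn1 read 8.82, 8.70 and 8.85 on the healthy control arrays, 12.40, 12.38 and 12.04 on the control AKI arrays, 9.02, 8.73 and 8.64 on the GR-deficient healthy arrays and 11.07, 10.40 and 10.19 on the GR-deficient AKI arrays. The order was control AKI, GR-deficient AKI, then both healthy groups, which overlapped; the first 2 overlapped neither each other nor the healthy arrays. The rise was 3.48 ± 0.187 in control mice (limma adjusted p = 1.86e-08) and 1.76 in GR-deficient mice (limma adjusted p = 2.07e-04). The difference between genotypes in AKI was -1.72 (limma adjusted p = 2.39e-05), and the interaction was -1.73 ± 0.265 (limma adjusted p = 8.02e-04).

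Txnrd1, cytosolic thioredoxin reductase, uses NADPH to keep thioredoxin reduced. Txnrd1 read 9.78, 9.69 and 9.83 on the healthy control arrays, 11.60, 11.71 and 11.41 on the control AKI arrays, 9.89, 9.68 and 9.86 on the GR-deficient healthy arrays and 10.90, 10.59 and 10.23 on the GR-deficient AKI arrays. The order was as for Srxn1, with both healthy groups overlapping and each AKI group on its own. The rise was 1.81 ± 0.146 in control mice (limma adjusted p = 3.93e-07) and 0.77 in GR-deficient mice (limma adjusted p = 0.00811), which was lost without GR-deficient AKI replicate 1 (adjusted p = 0.0531). The interaction was -1.04 ± 0.207 (limma adjusted p = 0.00444).

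Gclc is the catalytic subunit of glutamate-cysteine ligase, which makes the first bond of glutathione, and Gclm is its modifier subunit. Gclc read 11.32, 11.51 and 11.55 on the healthy control arrays, 12.39, 12.63 and 12.33 on the control AKI arrays, 11.15, 11.26 and 11.51 on the GR-deficient healthy arrays and 11.97, 11.96 and 11.66 on the GR-deficient AKI arrays. The control AKI arrays were highest, the GR-deficient AKI arrays came next without overlap, and the healthy groups overlapped each other. The rise was 0.98 ± 0.131 in control mice (limma adjusted p = 3.85e-05) and 0.56 in GR-deficient mice (limma adjusted p = 0.0258). The latter was lost without replicate 1 or 2 of GR-deficient AKI or of GR-deficient healthy, and without both arrays that stand apart (adjusted p = 0.0538). In AKI Gclc was lower in GR-deficient mice by 0.58 (difference -0.58, limma adjusted p = 0.00576), and the interaction of -0.43 did not pass (limma adjusted p = 0.172), but did with array weights (-0.51, limma adjusted p = 0.0175).
Gclm read 11.92, 11.82 and 11.88 on the healthy control arrays, 12.01, 12.15 and 12.05 on the control AKI arrays, 11.33, 11.82 and 11.89 on the GR-deficient healthy arrays and 12.23, 12.08 and 11.94 on the GR-deficient AKI arrays. Its AKI arrays were above its healthy arrays in each genotype, but the differences of 0.19 ± 0.136 (limma adjusted p = 0.366, interval -0.10 to 0.49) and 0.40 (limma adjusted p = 0.116) did not pass. GR-deficient healthy replicate 1 was the low array.
Gsr, glutathione reductase, returns oxidised glutathione to its reduced form. Gsr read 11.41, 11.65 and 11.45 on the healthy control arrays, 11.76, 11.97 and 11.81 on the control AKI arrays, 11.09, 11.17 and 11.07 on the GR-deficient healthy arrays and 11.68, 11.29 and 11.40 on the GR-deficient AKI arrays. In each condition the GR-deficient arrays lay below the control arrays, and the GR-deficient AKI arrays overlapped the healthy control arrays. Gsr rose by 0.34 ± 0.118 in control mice (limma adjusted p = 0.0421), and the difference of 0.35 in GR-deficient mice did not pass (limma adjusted p = 0.112). The call in control mice held in 5 of 12 fits that each left out 1 array, those without control AKI replicate 1, control healthy replicate 2, replicates 1 and 2 of GR-deficient AKI or GR-deficient healthy replicate 1.
In AKI Gsr was lower in GR-deficient mice (difference -0.38, limma adjusted p = 0.0362), which was lost without replicate 2 or 3 of control AKI, replicate 3 of control healthy or replicate 2 or 3 of GR-deficient AKI. In healthy mice the difference was -0.39 (limma adjusted p = 0.236). In the average over both conditions, added after the data were seen, it was -0.39 (limma adjusted p = 0.0098), which passed in all 12 fits that left out 1 array.

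Nqo1 is a quinone reductase that takes electrons from NADPH. Nqo1 read 9.34, 9.13 and 9.34 on the healthy control arrays, 10.94, 11.09 and 11.12 on the control AKI arrays, 9.48, 9.11 and 9.20 on the GR-deficient healthy arrays and 11.13, 10.80 and 10.83 on the GR-deficient AKI arrays. The AKI groups overlapped each other, as did the healthy groups, and every AKI array was above every healthy array. The rise was 1.78 ± 0.126 in control mice (limma adjusted p = 1.31e-07) and 1.66 in GR-deficient mice (limma adjusted p = 2.83e-05). The difference between genotypes in AKI was -0.13 (limma adjusted p = 0.564, interval -0.40 to 0.14), and the interaction was -0.12 (interval -0.50 to 0.26).

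Akr1b8 is an aldo-keto reductase that reduces reactive aldehydes. Akr1b8 read 6.77, 6.56 and 6.40 on the healthy control arrays, 10.67, 10.99 and 10.77 on the control AKI arrays, 6.62, 6.28 and 6.13 on the GR-deficient healthy arrays and 8.88, 8.85 and 8.0 on the GR-deficient AKI arrays. The order was control AKI, GR-deficient AKI, then both healthy groups, which overlapped. The rise was 4.23 ± 0.205 in control mice (limma adjusted p = 1.15e-08) and 2.23 in GR-deficient mice (limma adjusted p = 6.73e-05). The difference between genotypes in AKI was -2.23 (limma adjusted p = 6.66e-06), and the interaction was -1.99 ± 0.290 (limma adjusted p = 6.0e-04). All 6 healthy arrays read Akr1b8 below the array's median over genes. No background level was set, so the healthy level was not shown to be above background, and the folds and shares given for Akr1b8 are those of the RMA values. Akr1b8 has close relatives in its gene family, and whether its probes also bind them was not tested.

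Abcc4 (MRP4) exports organic anions and conjugates from the cell. Abcc4 read 9.15, 9.07 and 9.05 on the healthy control arrays, 10.14, 10.21 and 10.26 on the control AKI arrays, 9.58, 9.23 and 9.68 on the GR-deficient healthy arrays and 10.80, 10.47 and 10.60 on the GR-deficient AKI arrays. The order was GR-deficient AKI, control AKI, GR-deficient healthy and control healthy, with no overlap between neighbours. The rise was 1.11 ± 0.124 in control mice (limma adjusted p = 7.81e-06) and 1.13 in GR-deficient mice (limma adjusted p = 2.07e-04), and the interaction was 0.01 (interval -0.36 to 0.39). GR-deficient mice were higher by 0.42 in AKI (limma adjusted p = 0.0306), a call lost without control AKI replicate 1 or 2, GR-deficient AKI replicate 1 or 3, or both arrays that stand apart (adjusted p = 0.0582). In healthy mice the difference was 0.41 (limma adjusted p = 0.243). In the average over both conditions, added after the data were seen, it was 0.41 (limma adjusted p = 0.00946), which passed in all 12 fits that left out 1 array.

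The AKI response in GR-deficient mice was then set against that of AKI genes in general. Over the 1301 other genes with a called response of 2-fold or more in controls, the slope of the GR-deficient on the control response was 27.6%, with a median share of 26.5% and quartiles of 11.9% and 39.6%. These genes were chosen on the control response, which biases the slope downward. Of them 787 fell, with a median share of 18.6%, and 514 rose, with a median share of 36.7%. The 9 genes all had positive control responses. Of the control response, Nqo1 kept 93.2%, Abcc4 101%, Nfe2l2 88.6%, Gsr 103%, Gclc 56.7%, Akr1b8 52.8%, Srxn1 50.4% and Txnrd1 42.4%. The share of Gclm (207%) rests on a control response that did not pass. That of Gsr rests on a control response that passed in 5 of 12 fits that left out 1 array. The GR-deficient response of Gsr did not pass (limma adjusted p = 0.112). In GR-deficient mice Nqo1 stood 1.17 ± 0.131 above its prediction (limma adjusted p = 0.00225), Abcc4 0.82 ± 0.129 (limma adjusted p = 0.0143) and Akr1b8 1.07 ± 0.213 (limma adjusted p = 0.0461), where 0.401% of all genes and 1.92% of the genes that gave the slope passed. The slope was entered as a fixed number, so these errors and p-values hold the gene's own array error only. They leave out the uncertainty of the slope and the spread of shares between genes. The deviations of the other genes did not pass, those of Nfe2l2 (limma adjusted p = 0.319), Gsr (limma adjusted p = 0.425) and Gclc (limma adjusted p = 0.424) among them.
Nqo1 passed in all 12 fits that left out 1 array. Abcc4 was lost without GR-deficient AKI replicate 1 or 3. Akr1b8 passed only without control AKI replicate 3 or GR-deficient AKI replicate 3, and was lost without both arrays that stand apart (0.97, limma adjusted p = 0.116). With the slope from the 131 genes called in GR-deficient mice, 52.1%, only Nqo1 passed (0.73, limma adjusted p = 0.0246). Those genes were chosen on the GR-deficient response, which biases that slope upward. With the slope from the 514 genes that rose in control mice, 37.9%, an alternative added after the data were seen, Nqo1 (0.98, limma adjusted p = 0.0138) and Abcc4 (0.71, limma adjusted p = 0.039) passed. Of those 514 rising genes, 97.9% kept a smaller share than Nqo1, 98.4% than Abcc4, 79.4% than Akr1b8, 76.8% than Srxn1 and 64.2% than Txnrd1.

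**Figure D3:**
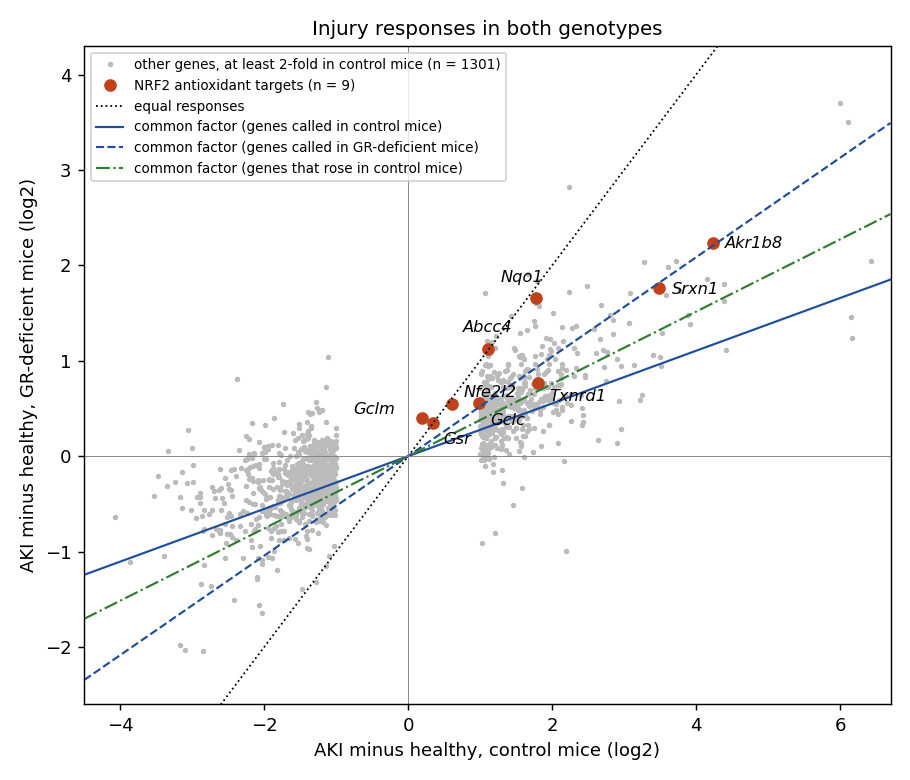
AKI minus healthy on the log2 scale in GR-deficient mice against the same in control mice, for the 9 genes (red, named) and other genes called in controls with a response of 2-fold or more (grey, n = 1301). The lines mark equal responses and 3 estimates of the common factor; Nqo1 and Abcc4 lie near the line of equal responses and Txnrd1 near the line from rising genes.

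Markers of other cells moved between the groups as well. Their counts stand beside the shares of all genes. In control AKI 13.6% of all genes rose and 15.1% fell, and in GR-deficient AKI 3.29% and 1.35%. Between genotypes in AKI 7.34% were lower in GR-deficient mice and 10.02% higher. Summed linear levels of 7 neutrophil markers were 8.20 to 8.43 on a log2 scale in healthy control mice, 9.59 to 10 in control AKI, 8.27 to 8.48 in healthy GR-deficient mice and 8.50 to 8.82 in GR-deficient AKI. All 7 rose in control AKI, none passed in GR-deficient AKI, and 6 were lower in GR-deficient than in control AKI. Summed levels of 10 proximal tubule markers were 16.11 to 16.18, 14.35 to 14.74, 15.66 to 16.09 and 15.60 to 15.75 in the same order of groups; 10 of 10 fell in control AKI, 2 fell in GR-deficient AKI, and 9 were higher in GR-deficient than in control AKI.
Of 8 macrophage markers 2 rose and 1 fell in control AKI. Between genotypes in AKI 1 was higher in GR-deficient mice (Csf1r by 0.59) and 2 were lower (Cd68 by -1.70 and Itgam by -0.87). The macrophage sums were 10.68 to 10.85, 11.16 to 11.45, 10.60 to 10.84 and 10.74 to 11.07. In whole cortex, fewer cells of a type and less RNA per cell cannot be told apart. The part of these cells in the 9 genes' differences was not tested. Of 5 fibroblast and mural markers 4 rose in control AKI, Pdgfrb (1.02) and Col3a1 (0.93) among them, and 1 fell, Dcn (-0.62). In GR-deficient AKI 1 rose. The fibroblast and mural sums were 10.81 to 11.08, 11.22 to 11.48, 10.86 to 11.04 and 11.22 to 11.29. Of 5 endothelial markers 2 rose and 2 fell in control AKI and none passed in GR-deficient AKI, with sums of 11.76 to 11.83, 11.40 to 11.85, 11.65 to 11.85 and 11.80 to 11.82. Of 4 podocyte markers measured 1 rose and 1 fell in control AKI, and of 5 adrenal cortex markers 1 rose; none of either passed in GR-deficient AKI. Of 8 markers of the loop, distal tubule and collecting duct 5 fell in control AKI and 2 in GR-deficient AKI, and of 5 skeletal muscle markers none passed in either. RMA levels have no zero, so no marker can be called absent.

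A list of 32 other NRF2 targets, of which 30 were measured, was read beside the 9 genes. For this list and those below, the shares of all genes were 13.6% up and 15.1% down in control AKI. They were 3.29% and 1.35% in GR-deficient AKI. For GR deficiency in AKI they were 10.02% higher and 7.34% lower, for the interaction 7.39% and 4.06%, and for healthy mice 0.145% in all. In control AKI 20 rose and 2 fell, with a median of 0.60. Those that rose included Hmox1, heme oxygenase (3.77 ± 0.208, limma adjusted p = 2.18e-08), Slc7a11, the cystine transporter (4.15), Cbr3, a carbonyl reductase (2.58), Mgst1, a microsomal glutathione transferase (2.13), and Pgd of the pentose phosphate pathway (1.76). Gss and Me1 fell (-0.62 and -0.66). In GR-deficient AKI 19 rose and none fell, with a median of 0.62, and 12 rose without GR-deficient AKI replicate 1. Hmox1 rose 1.73, Slc7a11 1.86, Gsta4, a glutathione transferase, 1.61, Pgd 1.37, Mgst1 1.36 and Gstp1 1.19.
Between genotypes in AKI 9 were lower and 4 higher in GR-deficient mice. Slc7a11 (-2.34), Hmox1 (-1.79) and Abcc1, an export pump (-0.70), were lower, and Gsta3 (0.72) was higher. The interaction passed for 6 downwards and for Gss and Ephx1 upwards. In healthy mice 1 passed, Gsta4 (0.85, limma adjusted p = 0.0233), which was lost without control healthy replicate 1 or 3 or GR-deficient healthy replicate 1 or 2.

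**Figure D4:**
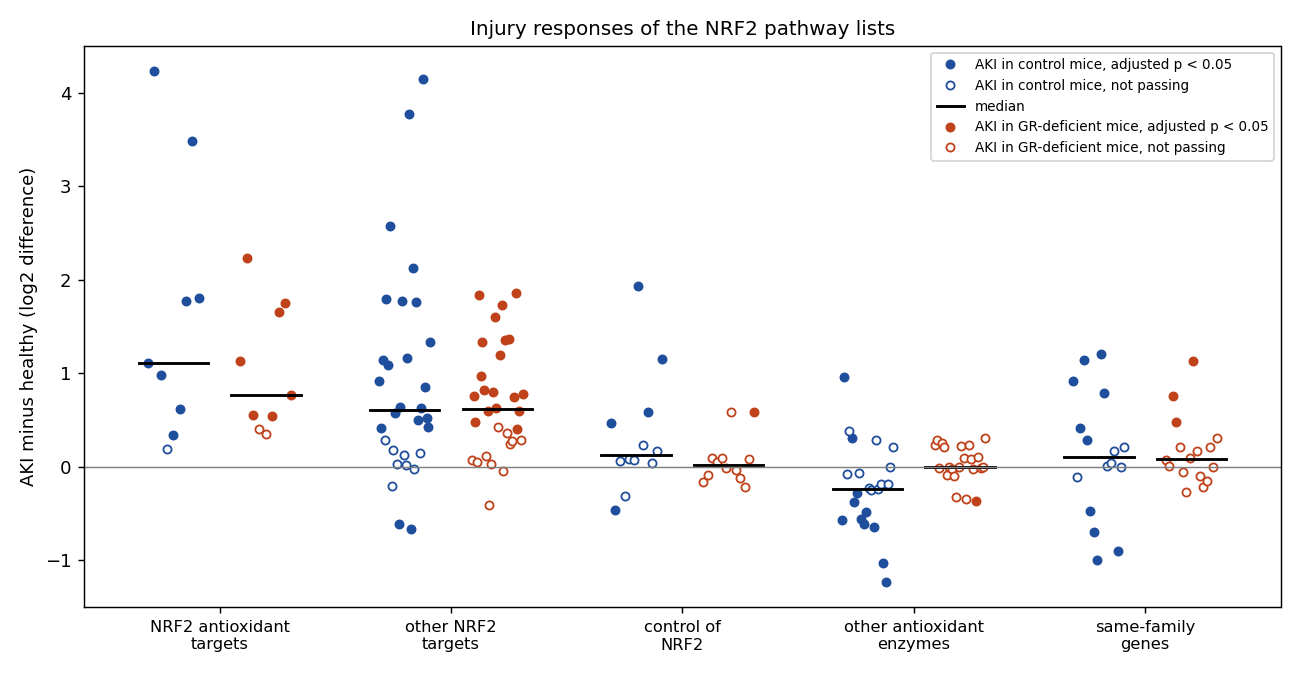
AKI minus healthy on the log2 scale for each measured gene of the 9 targets and of 4 further lists, in control mice (blue) and GR-deficient mice (red); filled points have a limma adjusted p below 0.05 and lines are medians. The other NRF2 targets lie mostly above 0 after AKI in both genotypes (medians 0.60 and 0.62), and the other antioxidant enzymes have a median of -0.23 in control mice.

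Of 12 genes that control NRF2, all measured, 4 rose in control AKI: Maff (1.94), Mafk (0.59), small MAF partners of NRF2, Sqstm1, which can sequester KEAP1 (1.15), and Bach1, the repressor of the same elements (0.47). Btrc, part of a ubiquitin ligase, fell (-0.46). In GR-deficient AKI only Sqstm1 passed (0.59, limma adjusted p = 0.0156), which was lost without GR-deficient AKI replicate 1 or GR-deficient healthy replicate 1 or 2, and the count was 2 without control AKI replicate 1 or 3. Between genotypes in AKI 4 were lower in GR-deficient mice: Maff (-1.44), Mafk (-0.83), Sqstm1 (-0.68) and Bach1 (-0.51). Keap1 did not pass in any of the comparisons.

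Antioxidant enzymes not counted as NRF2 targets here gave more falls than rises in control AKI. Of 25 listed 22 were measured, 2 rose and 9 fell, with a median of -0.23, where 13.6% of all genes rose and 15.1% fell. Those that fell included the superoxide dismutases Sod3 (-1.23) and Sod2 (-1.03), the p53 target Sesn1 (-0.64) and the methionine sulfoxide reductase Msra (-0.55). In GR-deficient AKI 1 passed, Sod2 (-0.36, limma adjusted p = 0.0488), which held only without control AKI replicate 1 or 3. Between genotypes in AKI 9 were higher in GR-deficient mice, with Sod3 (0.90), Sod2 (0.61), Prdx4 (0.53) and Prdx2 (0.45) among them, and the count was 4 without replicate 2 of control AKI or replicate 3 of GR-deficient AKI, and 5 when replicate 2 of the latter was left out.
Of 16 measured relatives of the 10 genes, 6 rose and 4 fell in control AKI. The lists overlap, so some of these were counted above. Abcc1, Abcc2 and Abcc3 are also among the other NRF2 targets. Txnrd2 and Txnrd3 are among the antioxidant enzymes and Nfe2l1 among the genes that control NRF2. The probe set of G6pd2, a glucose-6-phosphate dehydrogenase and relative of G6pdx, rose in both genotypes (1.2 and 1.13). Whether its probes also bind G6pdx, which was not analysed here, was not tested. Abcc3 rose 1.15 in control mice. Akr1b10, a relative of Akr1b8, fell (-0.99), as did Nqo2, a relative of Nqo1 (-0.90). In GR-deficient AKI 3 rose, Abcc2 (0.76) among them, and Abcc3 (0.48) was lost in 7 of 12 fits that left out 1 array. Between genotypes in AKI 3 were higher in GR-deficient mice, Nqo2 (0.97) and Akr1b10 (0.77) among them, and 3 were lower, H6pd (-0.85) among them.

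Likeness of pattern was measured as the root mean square difference from a gene over 3 log2 differences from healthy control mice, those of control AKI, GR-deficient healthy and GR-deficient AKI. Predicted genes and clone names, small RNAs, antigen receptor segments, olfactory and vomeronasal receptors and mitochondrial genes were left out of this search. Nearest to Nqo1 were Pir (0.134), Slc16a6 (0.146) and Pgd (0.171). Nearest to Srxn1 were Pdk4 (0.076), Plaur (0.218) and Hmox1 (0.25), and nearest to Akr1b8 were Slc7a11 (0.161), Fosl1 (0.371) and Hmox1 (0.385). Nearest to Abcc4 were Fgf18 (0.0388), Cbr1 (0.135) and Abcb1a (0.163), and nearest to Txnrd1 were Chrnb1 (0.0173), Mvp (0.0434) and Actn1 (0.0559). The closest genes searched were Il1rn, Rars and Snx10 for Gclc (0.0262 to 0.0388), Alkbh3, Lin37 and Mms22l for Gclm (0.0142 to 0.0174), Snx30, Nol9 and Arid5b for Gsr (0.0425 to 0.0549), and Pold2, Frk and Sae1 for Nfe2l2 (0.0288 to 0.0359). For these genes and Txnrd1 the distances are below the standard errors of the gene's own differences. The same holds for the first gene named for Abcc4, Srxn1 and Akr1b8. The distance of Pir is close to the error for Nqo1 (0.126). Which genes rank nearest is therefore not settled for any of the 9.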

How the data were processed

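Renal cortex RNA was isolated with the RNeasy Micro kit and amplified with the Nugen Ovation system, per the labels' protocols. The deposited values are log2 expression levels. Per the submitters' processing notes, the authors made them by RMA and used affy and oligo. Tool versions and the log base are not stated there, and the largest value per array (14.73 to 14.9) has the range of a log2 scale. The scans themselves were left out.

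Of 35556 probe sets, 21789 had exactly 1 gene symbol, giving 19938 genes, with the probe set of highest mean kept per gene. Groups came from the sample labels. A model of 4 group means was fitted to all 12 arrays with limma 3.58.1 in R 4.3.3 (lmFit and eBayes, 8 residual and 6.26 prior degrees of freedom), with two-sided p-values adjusted by Benjamini-Hochberg within a contrast. The members, lists and tests were chosen with earlier results of these data known. Named are the members, Nr3c1, up to 4 genes of smallest p per list and comparison (with Gss, Me1, Ephx1 and Keap1 added after their values were seen), and the 3 genes of most like pattern. Marker sums are log2 of summed linear levels.

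The fits were tested on simulated data: of genes changed by 1 on the log2 scale, the AKI contrasts recovered 90% (controls) and 96% (GR-deficient), the genotype contrasts 88% (healthy) and 96% (AKI), and the interaction 62%; for changes of 0.5 the shares were 20%, 34%, 26%, 44% and 4%. Each share rests on 50 of 19938 genes in 1 simulated draw, so differences between the comparisons may come from the draw. Except for genotype in healthy mice, fewer genes were changed there than passed in the data. The adjusted threshold was therefore not the same as in the data. The number of arrays limits the precision. Alternatives were other scalings, a filter on dim genes, other variance models, array weights, a fold threshold, a replicate block and leaving out each array.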

Additional observations from a re-analysis of the deposited data

Results flagged for a closer look

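The AKI response differed between genotypes, by the interaction term in limma, for 2283 of the 19938 genes (11.5%). Given here are those among the 9 members, Nr3c1 and the 4 pathway lists, 3 members and 18 other genes; markers of cell types, of which 10 of 10 for the proximal tubule and 6 of 7 for neutrophils also passed, are not listed. Among the members the interaction was -1.73 for Srxn1, -1.04 for Txnrd1 and -1.99 for Akr1b8. Among genes that control NRF2 it was -1.35 for Maff, -0.71 for Mafk and -0.633 for Bach1. Among other NRF2 targets the response was smaller in GR-deficient mice for Hmox1 (-2.04), Slc7a11 (-2.3), Cbr3 (-1.25), Abcc1 (-0.841), Mgst1 (-0.773) and Abcc3 (-0.662). It was shifted upwards for Ephx1 (1.02) and Gss (0.642). Among other antioxidant enzymes and relatives it was shifted upwards for Sod3 (1.34), Nqo2 (1.12), Akr1b10 (1.08), Cat (0.805), Sod2 (0.664) and Akr1a1 (0.427). For Nr3c1 it was 0.496. The Akr1a1 call passed in 1 of 12 fits that each left out 1 array, Nr3c1 in 6, Bach1 and Abcc3 in 8 and Mgst1 in 9.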

How the results depend on the processing

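Over 63 results for single members and 25 settings, 1304 of 1386 values kept their side of the threshold. Of the rest, 76 were no longer past it and 6 newly passed, and 0 calls reversed. Values that did not pass could change sign. The genotype difference of Srxn1 in healthy mice did so over fits that left out 1 array (-0.10 to 0.09). Against a 1.2-fold threshold the members called were 4 for the AKI response of GR-deficient mice, 3 for genotype in AKI, 2 for the average and 1 for deviation from the common factor, and 1 with the slope from genes called in GR-deficient mice. Leaving out 1 array gave 7 to 8 members for the AKI response of controls, 4 to 7 for that of GR-deficient mice, 0 to 0 for genotype in healthy mice, 4 to 6 for it in AKI, 3 to 3 for the interaction, 5 to 6 for the average and 1 to 3 for deviation. Same-numbered arrays did not deviate together (3 of 18 pairs above a correlation of 0.1, and 3 of 12 arrays correlated best with their own number). The main fit did not pair arrays by number. Deviations from means of 3 arrays cannot show that equal numbers share nothing. With the replicate block 7, 6, 0, 5 and 3 members were called in the 5 main comparisons; lost were Gsr in control AKI (adjusted p = 0.0654), Nfe2l2 in GR-deficient AKI (0.071) and Gsr between genotypes in AKI (0.0594). Without both arrays that stand apart, a setting added after the data were seen, 8, 5, 0, 5 and 3 were called. Those that newly passed were, with array weights, Gclm after AKI in both genotypes (0.0208 and 0.0371), Gsr in GR-deficient AKI (0.0448), the interaction of Gclc (0.0175) and the deviation of Srxn1 (0.0212), and, in the brighter genes, Gsr in GR-deficient AKI (0.0498). Akr1b8's deviation was lost under quantile normalization (0.0624) and cyclic loess (0.0616). Counts over all genes moved most: for AKI in GR-deficient mice 926 became 3196 with array weights, 1419 in the brighter genes, 153 against the fold threshold and 277 to 1448 without 1 array; for GR deficiency in healthy mice 29 became 7 to 301. For AKI in control mice 5715 became 9648 with weights and 2870 against the fold threshold, for genotype in AKI 3460 became 7000 and 1244, for the interaction 2283 became 4905 and 916, and for the average 1686 became 4355 and 218. The cause of these moves was not tested.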
